A study of Mus musculus with 10 samples.

Results

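The genes described here are ATF4 and 9 genes tied to it or to stress of the endoplasmic reticulum (ER) in MC3T3-E1 cells cultured with β-ecdysterone. They were taken from the deposited table by gene name and are Atf4, Asns, Chac1, Trib3, Ddit3, Atf3, Psat1, Hspa5, Xbp1 and Creb3l1, 10 genes of 29583 listed. The choice did not use their measured values, but it was made with earlier results of these data known. All 10 passed the filter on low counts and were among the 16794 genes tested for treated cells against 0 μM. Ddit3 has 2 entries in the table. The second, ENSMUSG00000116429, overlaps the first on chromosome 10 (127290829 to 127293753) and held 1 count in all libraries together, so it was left out.

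MC3T3-E1, a line of osteoblast precursors from newborn C57BL/6 mouse skull, was grown in standard medium with β-ecdysterone, a sterol found in plants, at 0, 100, 150 or 200 μM, and mRNA was sequenced on day 5 and day 10. Each dose had 1 library on each day, which gave 6 treated libraries and 2 libraries at 0 μM. A further 2 libraries, A-5 and B-4, were labelled untreated with no time. The source label of the samples names bone marrow mesenchymal stem cells where their titles name MC3T3-E1, and the RNA extraction is stated as n = 3.

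Because each dose and day had a single library, the 3 doses of a day stood in as replicates of treated cells. The p-values therefore measure only the spread between these libraries, which may be technical. Library totals were between 27108562 and 58218009 counts, and all 4 libraries above 40000000 counts were at 0 μM on day 5, at 150 μM on both days or at 200 μM on day 10. The collagen gene Col1a1 was at 8337 and 10368 CPM (counts scaled to library size with TMM factors) at 0 μM. In treated cells it was between 6017 and 11529 CPM. Summed over 9 osteoblast markers, levels were 23065 and 27985 CPM at 0 μM and 18969 to 39387 CPM in treated cells. In A-5 and B-4 the sum was lower, 15058 to 16283 CPM. Of 9 osteoblast markers, 5 were called higher in treated cells (Runx2, Sp7, Alpl, Ibsp and Sparc) and none lower by the test given below, and Spp1 was lower inside its fold limit. Summed over 5 endothelial markers, levels were 0.609 and 0.822 CPM at 0 μM and 2.21 to 2.68 CPM in treated cells, and over 6 muscle markers 2.12 and 2.44 CPM against 5.24 to 9.41 CPM. The sum of 7 macrophage markers was 28.0 and 40.4 CPM against 34.9 to 67.7 CPM, with Ptprc at 0 in both 0 μM libraries, and that of 7 adipocyte markers 3.48 and 3.71 CPM against 3.80 to 7.07 CPM, with Cfd at 0 in every library. The part of these markers in the results below was not tested. In such bulk RNA, fewer cells of a type and less RNA per cell cannot be told apart.

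ATF4 is a basic leucine zipper (bZIP) transcription factor whose messenger RNA is translated more when kinases such as PERK, GCN2, HRI and PKR phosphorylate the initiation factor eIF2α. It switches on genes of amino acid synthesis and uptake, and under lasting stress it acts with CHOP, the product of Ddit3. Other arms of the unfolded protein response run through IRE1, which splices Xbp1 messenger RNA, and through ATF6, and they raise chaperones such as BiP, the product of Hspa5. In osteoblasts ATF4 is known for its role in collagen synthesis and late differentiation, and OASIS, the product of Creb3l1, is an ER-anchored bZIP factor of bone. Since ATF4 is controlled largely through translation, its messenger RNA level is only one view of the pathway.

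ATF4 binds with C/EBP partners to a composite element (CARE), searched here as TGATGNAAN on both strands. BiP is the classic gene with an ER stress element (ERSE), which is CCAAT and CCACG with 9 bases of any kind between them. The RefSeq promoter windows of GRCm38.p6, 250 bases before to 50 bases after the start, covered 9 of the 10 genes. For Atf3 and Psat1 this start lies inside the gene as placed in the GENCODE M21 annotation, not at its outer end. CARE letters stood in the windows of 4 of these genes, Asns, Chac1, Trib3 and Atf3, and in 3.95% of all 32851 windows. ERSE letters stood in the window of Hspa5 and in 0.119% of all windows. No window of the 9 genes held TGACGTGG (the core of the unfolded protein response element, in 0.676% of all windows) or TGACGTCA (the cAMP response element, in 1.79%). A match is only a description of these letters. The following stretches, 5′ to 3′ along each gene with the match in capitals, are shown because these are the 5 genes with a match in their window.
Asns (chr6:7693210-7693459, minus strand, the 250 bases before the start, CARE in forward direction): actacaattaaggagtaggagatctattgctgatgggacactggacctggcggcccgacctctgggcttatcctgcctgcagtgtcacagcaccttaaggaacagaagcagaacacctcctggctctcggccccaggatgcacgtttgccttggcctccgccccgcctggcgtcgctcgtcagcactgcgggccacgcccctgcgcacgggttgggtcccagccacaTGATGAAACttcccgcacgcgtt
Chac1 (chr2:119350992-119351241, plus strand, the 250 bases before the start, CARE on the opposite strand): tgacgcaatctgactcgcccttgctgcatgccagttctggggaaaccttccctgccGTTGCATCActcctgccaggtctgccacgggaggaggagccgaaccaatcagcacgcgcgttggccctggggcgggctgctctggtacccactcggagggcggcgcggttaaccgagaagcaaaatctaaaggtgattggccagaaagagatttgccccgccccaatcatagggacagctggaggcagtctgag
Trib3 (chr2:152344028-152344057, minus strand, 30 bases just after the start, CARE on the opposite strand): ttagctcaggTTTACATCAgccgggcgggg
Atf3 (chr1:191183334-191183583, minus strand, the 250 bases before the start, CARE on the opposite strand): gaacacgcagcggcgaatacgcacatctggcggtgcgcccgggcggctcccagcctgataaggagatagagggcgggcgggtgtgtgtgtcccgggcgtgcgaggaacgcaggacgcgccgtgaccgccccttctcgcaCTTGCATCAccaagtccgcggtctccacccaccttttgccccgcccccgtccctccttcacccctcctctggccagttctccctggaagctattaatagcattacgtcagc
Hspa5 (chr2:34771840-34772089, plus strand, the 250 bases before the start, ERSE in forward direction): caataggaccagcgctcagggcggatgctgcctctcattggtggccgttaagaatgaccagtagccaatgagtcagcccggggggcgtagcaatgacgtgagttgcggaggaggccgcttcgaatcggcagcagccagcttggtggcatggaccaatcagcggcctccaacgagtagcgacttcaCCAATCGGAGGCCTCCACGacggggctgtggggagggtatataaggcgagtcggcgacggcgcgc

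Levels differed widely between the genes. On the FPKM scale, which divides by transcript length, Hspa5 was the highest, with a median of 225 FPKM over the 10 libraries and a range of 165 to 273 FPKM. It stood above Psat1, the next gene, in all 10 libraries. Psat1 had a median of 99.1 FPKM and Atf4 of 86.8 FPKM, and each was above the other in 5 of 10 libraries. Asns followed at 54.3 FPKM, then Xbp1 and Ddit3, whose medians of 36.4 and 36.3 FPKM did not differ beyond their spread, and Creb3l1 at 32.0 FPKM. Ddit3 was above Creb3l1 in 8 of 10 libraries. Chac1 and Trib3 were close, at medians of 7.15 and 6.75 FPKM, with ranges that overlapped, and Chac1 was above Trib3 in only 2 of 10 libraries. Atf3 was lowest, at 1.56 FPKM. The widest range over the 10 libraries was that of Trib3, 6.73 times from its lowest to its highest library, followed by Atf3 with 4.46 times and Chac1 with 4.01 times. The other 7 genes ranged between 1.41 and 2.12 times.

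Treated cells were first set against 0 μM with the quasi-likelihood test of edgeR, adjusting for day. Calls needed a change of over 1 in either direction on the log2 scale (the fold limit) and an adjusted p (Benjamini-Hochberg) below 0.05. Atf3 was the only one of the 10 genes called higher and none was called lower, where 13.4% of all genes tested were called higher and 5.98% lower. Without the fold limit, Atf3 was higher and Atf4 lower, where 22.6% of all genes were higher and 20.8% lower. The median log2 fold change was -0.11 over the 10 genes and 0.05 over all genes tested. The messenger RNA of ATF4 itself fell while that of its relative Atf3 rose, and the other 8 genes did not pass this test. For some genes below, all 6 treated libraries lay on 1 side of both 0 μM libraries. The share of all genes with this separation was not counted, and 8645 of the 16794 genes had an unadjusted p under 0.05 by edgeR.

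Atf4 (ENSMUSG00000042406, chromosome 15, 80255184 to 80257541 in the GENCODE M21 annotation of GRCm38) encodes the central factor. It was at 231 CPM on day 5 and 244 CPM on day 10 at 0 μM. At 100, 150 and 200 μM it was at 165, 157 and 156 CPM on day 5 and at 139.5, 179.9 and 148 CPM on day 10. All 6 treated libraries lay below both 0 μM libraries and below both untreated ones, A-5 with 264 CPM and B-4 with 230.3 CPM. Treated cells had 158 ± 14.0 CPM (SD, n = 6), or -0.60 on the log2 scale relative to 0 μM (standard error, SE, 0.10, adjusted p = 0.00116 by edgeR). This is 0.66 of the 0 μM level, inside the fold limit. The fall was present in every alternative tried, between -0.66 and -0.55 on the log2 scale. It was -0.65 against A-5 and B-4 instead of 0 μM (adjusted p = 0.00521 by edgeR).

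Atf3 (ENSMUSG00000026628, chromosome 1, 191170296 to 191218039) is a stress-induced bZIP factor and a known target of ATF4. It was at 1.43 and 1.17 CPM at 0 μM on days 5 and 10. On day 5 it was at 4.49, 4.42 and 4.03 CPM at 100, 150 and 200 μM, and on day 10 at 3.23, 5.17 and 5.38 CPM. All 6 treated libraries lay above the 0 μM libraries and above A-5 and B-4, with 1.35 and 1.76 CPM. The level in treated cells was 4.45 ± 0.781 CPM (SD, n = 6), 3.39-fold higher than at 0 μM (log2 fold change 1.76, SE 0.26, adjusted p = 5.27e-04 by edgeR). Atf3 remained a gene of low level, with 37 to 280 counts per library. On the log2(FPKM + 1) scale, which compresses low values, its change was 0.88 and under the fold limit (adjusted p = 0.00178 by limma).

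**Figure D1:**
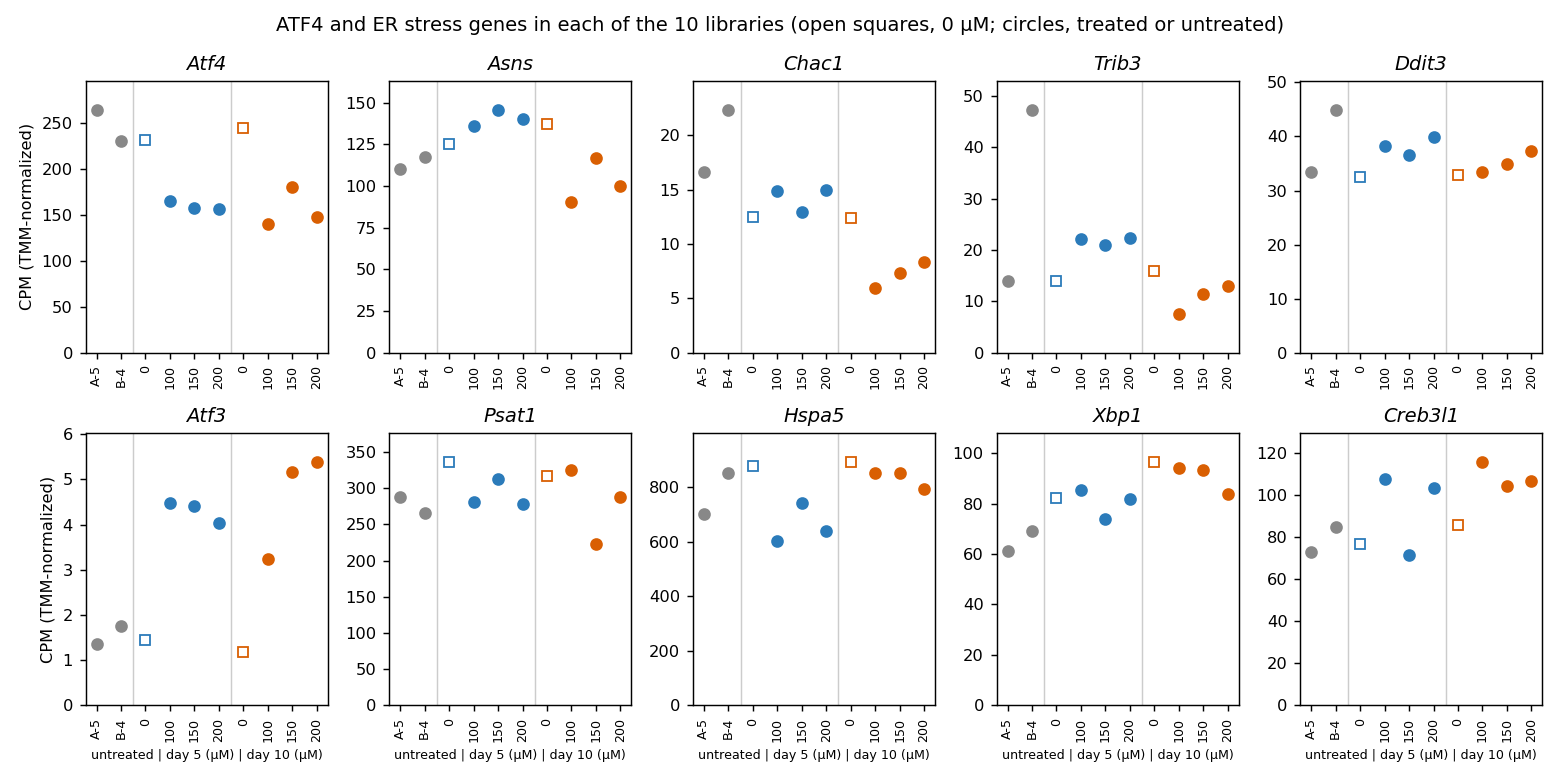
Level of each of the 10 genes in each library. The vertical axis of each panel is CPM from 0, the horizontal axis gives the untreated libraries and then the dose in μM by day (blue, day 5; orange, day 10), open squares are 0 μM and there is 1 library per point. Atf4 lies at 139.5 to 179.9 CPM in treated cells and 231 to 244 CPM at 0 μM, Atf3 shows the opposite order, and Asns, Chac1 and Trib3 split by day.

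Ddit3 (ENSMUSG00000025408, chromosome 10, 127290774 to 127296288) encodes CHOP, a bZIP factor of lasting ER stress. It was at 32.5 and 32.8 CPM at 0 μM on days 5 and 10. Treated libraries were at 38.2, 36.5 and 40.0 CPM at 100, 150 and 200 μM on day 5 and at 33.4, 34.9 and 37.3 CPM on day 10. All 6 lay above both 0 μM libraries, the lowest of them by a small margin, and the untreated libraries were at 33.5 and 44.9 CPM. How many of all genes separate in this way was not counted. The log2 fold change of 0.16 did not pass the test (SE 0.09, adjusted p = 0.172 by edgeR).

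Hspa5 (ENSMUSG00000026864, chromosome 2, 34771970 to 34777547) encodes BiP, the main Hsp70 chaperone of the ER. It was at 877 and 890.4 CPM at 0 μM. At 100, 150 and 200 μM it was at 601, 739.8 and 637 CPM on day 5 and at 852, 852 and 793 CPM on day 10. Treated libraries lay below both 0 μM libraries in 6 of 6, but A-5 with 700.1 CPM and B-4 with 853 CPM lay among or just above them. The log2 fold change of -0.27 did not pass the test (SE 0.12, adjusted p = 0.0884 by edgeR). It passed with library totals in place of TMM, at -0.32 and an adjusted p = 0.0470 by edgeR. On the FPKM scale it passed by limma with pseudocounts of 1 and 0.1, at -0.39 in both (adjusted p = 0.0416 and 0.0392). Over 22 alternatives the log2 fold change of Hspa5 kept its sign but shrank to -0.06 at the least and reached -0.43 at the most. Dropping single libraries gave values from -0.43 to -0.10. By day it was -0.43 on day 5 and -0.10 on day 10, each against 1 library at 0 μM. That difference was not called when tested as an interaction.

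Xbp1 (ENSMUSG00000020484, chromosome 11, 5520659 to 5525893) encodes the factor made active by IRE1. Gene counts do not separate its spliced form. It was at 82.1 and 96.4 CPM at 0 μM on days 5 and 10 and between 73.8 and 94.2 CPM in treated cells, with a median of 84.7 CPM. The groups overlapped, and the log2 fold change was only -0.07 (SE 0.09, adjusted p = 0.549 by edgeR). A-5 and B-4 were lower, at 61.1 and 69.0 CPM. Over 22 alternatives the log2 fold change of Xbp1 lay between -0.15 and 0.39, with the opposite sign in 2. Its adjusted p in these was at least 0.0462 (edgeR, DESeq2 and limma).

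Creb3l1 (ENSMUSG00000027230, chromosome 2, 91982328 to 92024502) encodes OASIS. It was at 76.5 and 85.5 CPM at 0 μM. In treated cells it was at 108, 71.2 and 103 CPM at 100, 150 and 200 μM on day 5 and at 115, 104 and 107 CPM on day 10. The library at 150 μM on day 5 lay below 0 μM and the other 5 above both 0 μM libraries. The log2 fold change was 0.31 (SE 0.14, adjusted p = 0.103 by edgeR). With each library left out in turn it lay between 0.26 and 0.40. It was 0.40 without the library at 150 μM on day 5 (adjusted p = 0.00566 by edgeR), the lowest adjusted p of 22 alternatives. That library stood out by its own low value in these data, so leaving it out is not a separate test of a rise.

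The genes of amino acid metabolism and feedback did not pass when both days were combined. Psat1 (ENSMUSG00000024640, chromosome 19, 15904678 to 15947337), an aminotransferase of serine synthesis, was at 336 and 317 CPM at 0 μM and between 223 and 325 CPM in treated cells, with a median of 284 CPM. On the log2 scale it differed by -0.20 (SE 0.13, adjusted p = 0.23 by edgeR). Asns, Chac1 and Trib3 had log2 fold changes of -0.15, -0.33 and -0.02 (adjusted p = 0.404, 0.228 and 0.952 by edgeR). For these 3 genes the treated libraries of day 5 and of day 10 lay on opposite sides of the 0 μM library of the same day, as described next.

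**Figure D2:**
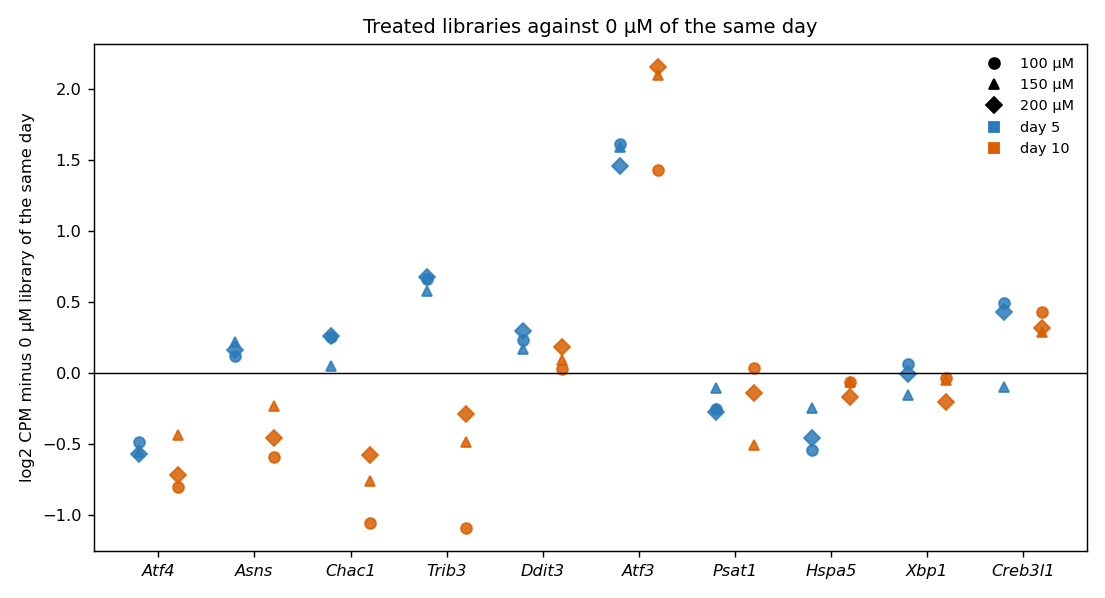
Difference of each treated library from the 0 μM library of the same day, in log2 CPM (vertical axis), for the 10 genes. Blue points are day 5 and orange points day 10, and the symbol gives the dose. All 6 differences of Atf4 are below 0 and all 6 of Atf3 above 0, while those of Asns, Chac1 and Trib3 are above 0 on day 5 and below 0 on day 10. The 3 differences of a day share 1 library at 0 μM.

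Trib3 (ENSMUSG00000032715, chromosome 2, 152337422 to 152344032) encodes a pseudokinase that is induced by ATF4 and CHOP and feeds back on them. It was at 14.0 and 16.0 CPM at 0 μM on days 5 and 10. On day 5 the libraries at 100, 150 and 200 μM were at 22.2, 21.0 and 22.4 CPM, and on day 10 at 7.48, 11.4 and 13.1 CPM. Every treated library of day 5 thus lay above every library at 0 μM and every treated library of day 10 below.

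Chac1 (ENSMUSG00000027313, chromosome 2, 119351229 to 119354381) encodes an enzyme that breaks down glutathione and is a target of ATF4. It was at 12.5 and 12.4 CPM at 0 μM on days 5 and 10. The treated libraries were at 14.9, 13.0 and 15.0 CPM at 100, 150 and 200 μM on day 5 and at 5.95, 7.31 and 8.32 CPM on day 10. On day 5 they were little above 0 μM, and on day 10 clearly below it. A-5 and B-4, at 16.6 and 22.3 CPM, lay above all 6 treated libraries, and with them in place of 0 μM the log2 fold change of both days combined was -0.87 (adjusted p = 0.104 by edgeR). It was -0.78 without the library at 0 μM on day 5, inside the fold limit, and 0.17 without that on day 10. These are the effects of day 10 and of day 5 alone, each against 1 library at 0 μM.

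Asns (ENSMUSG00000029752, chromosome 6, 7675169 to 7693254) encodes asparagine synthetase. It was at 125 and 137 CPM at 0 μM on days 5 and 10, at 136, 146 and 140.1 CPM in treated cells at 100, 150 and 200 μM on day 5 and at 90.8, 117 and 99.9 CPM on day 10. The highest library at 0 μM overlapped the treated libraries of day 5. A-5 and B-4 were at 110.4 and 118 CPM.

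The change between days was tested within the 6 treated libraries, with dose as a factor so that libraries of the same dose were compared. Trib3 was called lower on day 10, 1 of the 10 genes, where 0.194% of the 16020 genes tested were called lower and 1.09% higher, and none of the 10 was called higher. Without the fold limit Asns, Chac1 and Trib3 were lower, 3 of 10, against 1.5% of all genes lower and 2.87% higher. Trib3 fell by 1.05 on the log2 scale (SE 0.16, adjusted p = 0.0193 by edgeR), and Chac1 by 0.99 (SE 0.15, adjusted p = 0.0180), just inside the fold limit. Asns fell by 0.46 (SE 0.08, adjusted p = 0.0274 by edgeR). For all 3 the days did not overlap, and the share of all genes without overlap was not counted. At 0 μM the corresponding differences between single libraries, which have no replicate check, were 0.19 for Trib3, -0.01 for Chac1 and 0.13 for Asns.

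The calls between days rest on few libraries. Without the library at 100 μM on day 5, Trib3 fell by 0.83 on the log2 scale and was under the fold limit, and without that at 100 μM on day 10 it also fell by 0.83. Without the library at 200 μM on day 5 it fell by 1.20 but had an adjusted p = 0.0750 by edgeR. With library totals in place of TMM factors, the median of all genes shifted to -0.13 between days and Chac1 was called too, at -1.11. Relative to that shift the fall of Trib3, Chac1 and Asns had the same direction.

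The other 7 members did not pass between days. Hspa5 was higher on day 10 in all 3 doses without overlap, by 0.35 on the log2 scale (SE 0.10, adjusted p = 0.1001 by edgeR), which did not pass. Here too the share of all genes without overlap was not counted, and 3410 of 16020 genes had an unadjusted p under 0.05 by edgeR. Atf4, Atf3 and Ddit3 differed by -0.03, 0.08 and -0.11, with adjusted p of 0.879, 0.876 and 0.479 by edgeR. Xbp1, Creb3l1 and Psat1 differed by 0.18, 0.24 and -0.07, with adjusted p of 0.288, 0.258 and 0.817 by edgeR.

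Whether the effect of β-ecdysterone itself differed between days was tested as an interaction, with 1 library at 0 μM per day. None of the 10 genes was called at an adjusted p under 0.05 by edgeR or DESeq2, where edgeR called 0% of 17799 genes higher and 0.0112% lower, with 1464 genes at an unadjusted p under 0.05. The difference was -1.21 for Trib3, -0.96 for Chac1 and -0.58 for Asns on the log2 scale (standard errors 0.37, 0.30 and 0.21; adjusted p = 0.482, 0.501 and 0.54 by edgeR). A different effect on the 2 days was thus not shown by this test, although the day 5 and day 10 libraries of these genes lay on opposite sides of 0 μM. The other 7 genes had adjusted p of at least 0.746.

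The trend with dose was tested within treated cells as a slope per 100 μM with day as a covariate. None of the 10 genes was called by edgeR or DESeq2, where edgeR called 0% of 16020 genes higher and 0% lower, with 380 genes at an unadjusted p under 0.05. Slopes lay between -0.11 for Xbp1 and 0.38 for Trib3 on the log2 scale, and all adjusted p were at least 0.996. On day 10 the levels of Trib3 and Chac1 were ordered by dose, and on day 5 the level at 150 μM was the lowest of both genes.

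**Figure D3:**
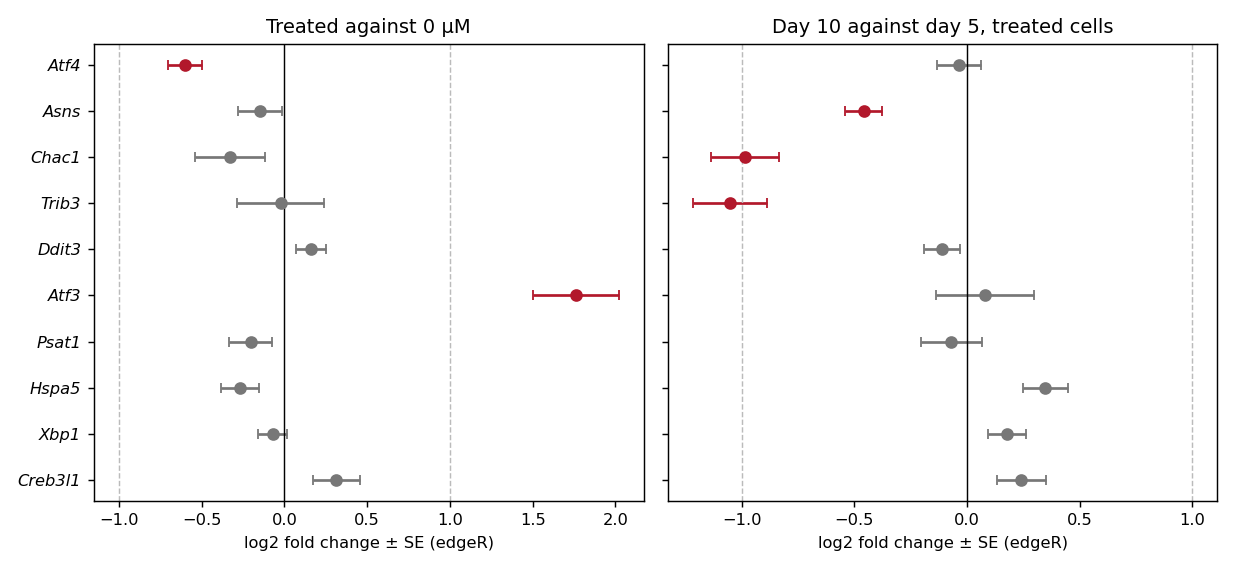
Fitted log2 fold changes of the 10 genes by edgeR with their standard errors, for treated against 0 μM (left; 6 and 2 libraries) and day 10 against day 5 in treated cells (right; 3 libraries a day). Red points have an adjusted p under 0.05 and dashed lines mark the fold limit. Atf4 and Atf3 stand apart on the left, and Asns, Chac1 and Trib3 on the right.

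The wider pathway was read from 13 lists of 200 entries, of which 193 passed the filter. Of these, 14 were called higher and 6 lower in treated cells against 0 μM, where 13.4% of all genes tested were called higher and 5.98% lower. Without the fold limit 45 were higher and 51 lower, against 22.6% and 20.8% of all genes tested, and the counts of the lists below are to be read against these shares. Fewer genes passed without the limit when a library at 0 μM was left out, from 3790 higher and 3490 lower over all genes to 2839 and 2519 without that of day 5 and to 2124 and 1885 without that of day 10. With A-5 and B-4 in place of 0 μM they numbered 1585 and 1616. The median log2 fold change of the 193 genes was -0.03, beside 0.05 for all genes tested.

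Few genes in the list of stress sensors and eIF2α kinases passed the test. Of 9 tested sensors and kinases, none was beyond the fold limit. Without it, Eif2ak4 (GCN2, the sensor of uncharged tRNA) was lower, from 86.4 and 84.1 CPM at 0 μM to 48.7 ± 2.34 CPM (SD, n = 6; log2 fold change -0.81, adjusted p = 3.49e-05 by edgeR). The untreated libraries did not share 1 level of Eif2ak4, with 86.4 CPM in A-5 and 44.0 CPM in B-4, and with them in place of 0 μM it did not pass (-0.42, adjusted p = 0.152 by edgeR). Mbtps1, the protease that cleaves ATF6 and OASIS, was higher, with 161 and 170.4 CPM at 0 μM and 242 ± 22.2 CPM in treated cells (log2 fold change 0.53, adjusted p = 8.83e-04 by edgeR). The other 7 did not pass: Eif2ak3 (PERK) had a log2 fold change of 0.02, Ern1 (IRE1) 0.14, Atf6 0.10, Atf6b 0.17, Eif2ak1 (HRI) 0.17, Eif2ak2 (PKR) 0.19 and Mbtps2 0.21. Of 11 genes of eIF2, its exchange factor and its phosphatase, 3 were lower without the fold limit, among them Ppp1r15b, which dephosphorylates eIF2α (log2 fold change -0.35). It was -0.36 without the library at 0 μM on day 5 and -0.35 without that on day 10, and passed in neither (adjusted p = 0.0532 and 0.0722 by edgeR). Against A-5 and B-4 it was 0.21 (adjusted p = 0.173 by edgeR). None of the 11 passed without the library at 0 μM on day 10.

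Among 16 bZIP partners and relatives, 4 were called lower, all of them AP-1 factors. Fosl1 fell from 119 and 111 CPM at 0 μM to 5.91 to 12.6 CPM in treated cells (log2 fold change -3.62, adjusted p = 2.90e-06 by edgeR). Junb, Jun and Fos had log2 fold changes of -2.64, -2.16 and -1.86. The untreated libraries differed strongly in these genes, with Fosl1 at 73.0 CPM in A-5 and 7.82 CPM in B-4 and Jun at 156 and 57.2 CPM. With them in place of 0 μM, Jun, Junb and Fosl1 were called lower at -1.30, -1.57 and -2.11, and Fos was at -2.38 and not called (adjusted p = 0.0512 by edgeR). The C/EBP partners did not pass against 0 μM, with Cebpb at -0.43 and Cebpd at -0.21. Cebpb was at 93.6 and 139 CPM at 0 μM and 61.3 to 134 CPM in treated cells, but at only 7.62 CPM in A-5 and 15.8 CPM in B-4. Cebpd was at 24.7 CPM in A-5 and 118 CPM in B-4, beside 46.1 to 146 CPM in treated cells. Between days in treated cells, Cebpb (-0.53) and Cebpd (-0.86) were lower on day 10 at adjusted p of 0.0325 and 0.0227 by edgeR, inside the fold limit. Of the 4 other genes of the OASIS family, Creb3l2 was higher without the fold limit (0.38), but not when either library at 0 μM was left out (adjusted p = 0.0833 and 0.215 by edgeR) or against A-5 and B-4 (0.155).

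The lists of amino acid supply did not all move in the same direction. Of 21 amino acid transporters, 4 were called higher and 1 lower. Slc7a7, a light chain for cationic amino acids, rose from 1.06 and 1.33 CPM to 7.33 ± 2.24 CPM (log2 fold change 2.60, adjusted p = 1.99e-04 by edgeR), and Slc43a2 and Slc38a7 had log2 fold changes of 1.36 and 1.06. Slc6a6, the taurine transporter, was lower (-1.48). The fourth rise, Slc38a1, reached at most 1.39 CPM. Without the fold limit 9 of the 21 transporters were higher and 2 lower, with a median of 0.39 and 15 of 21 above 0. Against A-5 and B-4 instead of 0 μM, 6 were higher and none lower without the limit, where 1585 of 16012 genes were higher and 1616 lower. The median of the transporters was again 0.39, with 15 of 21 above 0. Of 11 other enzymes of amino acid synthesis, Glul, glutamine synthetase, rose from 38.3 and 46.8 CPM to 223 ± 45.2 CPM (log2 fold change 2.38, adjusted p = 3.66e-05 by edgeR), and Cbs was called with at most 2.44 CPM in treated cells (log2 fold change 1.31, adjusted p = 0.0468 by edgeR). The call of Cbs was lost with library totals in place of TMM (adjusted p = 0.0508 by edgeR), against A-5 and B-4 (0.87, adjusted p = 0.37) and without the library at 0 μM on day 10 (0.67, adjusted p = 0.434). B-4 held 253 CPM of Glul and 9.74 CPM of Slc7a7, within the range of treated cells, and A-5 held 49.9 and 1.94 CPM. With A-5 and B-4 in place of 0 μM, Slc7a7, Slc38a7, Slc6a6 and Glul were not called. Without the library at 0 μM on day 10, Slc43a2 (0.98, adjusted p = 0.0611 by edgeR) and Slc38a7 (0.89) were not called.

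In synthesis of serine, glycine and folate carbon units, 5 of 10 genes were higher and 3 lower without the fold limit, and the only one past it was Aldh1l1, with at most 3.53 CPM in treated cells, a call lost without the library at 0 μM on day 10 (adjusted p = 0.0632 by edgeR). The mitochondrial dehydrogenase Mthfd2 was higher (log2 fold change 0.85) and its partners Mthfd1l and Shmt2 were lower (-0.78 and -0.72), 3 genes chosen after their values were seen. Without the library at 0 μM on day 10, 2 of the 10 genes were higher and 1 lower, and against A-5 and B-4 none passed, with Mthfd2, Mthfd1l and Shmt2 at -0.38, 0.55 and 0.25. Of 20 cytosolic aminoacyl-tRNA synthetases, which charge tRNAs and include several ATF4 targets, none passed the fold limit, and without it 14 were lower and none higher. Over all genes tested 22.6% were higher and 20.8% lower without the limit. The median log2 fold change of the synthetases was -0.31. The extremes, named after their values were seen, were Vars (-0.81) and Cars (-0.59). Without the library at 0 μM on day 10 2 of the 20 were lower, with a median of -0.22 and 17 of 20 below 0. Against A-5 and B-4 instead of 0 μM 3 were lower, with a median of -0.14 and 15 of 20 below 0, and Vars was at 0.18.

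Of 17 other targets of ATF4 and CHOP, 4 were called higher and 1 lower. Ddit4 (REDD1, a brake on mTOR) was at 114 and 89.3 CPM at 0 μM and 285 ± 51.8 CPM in treated cells (log2 fold change 1.49, adjusted p = 1.14e-04 by edgeR), and Cdsn had a log2 fold change of 1.87. Gdf15, a stress-induced secreted factor, was higher at a low level (0.747 and 0.853 CPM against 4.05 ± 1.78 CPM), and like Trib3 it was called lower on day 10 than on day 5 (-1.13, adjusted p = 0.0227 by edgeR). Vldlr was higher by 1.03, a call lost without the library at 0 μM on day 5 (0.51, adjusted p = 0.382 by edgeR), with DESeq2 (1.03, adjusted p = 0.0693), with library totals in place of TMM (0.96, adjusted p = 0.0503 by edgeR) and against A-5 and B-4 (2.03, adjusted p = 0.0648 by edgeR). Trib1, a relative of Trib3, fell from 37.0 and 42.9 CPM to 8.63 ± 1.55 CPM (log2 fold change -2.23, adjusted p = 5.87e-06 by edgeR). Ddit4 was at 170.3 CPM in A-5 and 585 CPM in B-4, and with these in place of 0 μM its log2 fold change was -0.42 (adjusted p = 0.457 by edgeR). The median of the list was 0.42 against 0 μM and -0.17 against the untreated libraries.

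The folding and disposal machinery of the ER moved in different directions. Of 25 ER chaperones and oxidoreductases, only Fkbp14, a collagen prolyl isomerase, was called (log2 fold change 1.03), a call lost with library totals in place of TMM (0.98), without the library at 0 μM on day 10 (0.64) and against A-5 and B-4 (0.72, adjusted p = 0.0887 by edgeR). Without the fold limit 3 of the list were higher and 9 lower, where 22.6% of all genes tested were higher and 20.8% lower. Hsp90b1 (GRP94) was lower, from 1542 and 1569.8 CPM at 0 μM to 1036 ± 142 CPM (log2 fold change -0.61), and Hyou1, Sdf2l1, Calr, Canx and Pdia6 were lower by the same test, while Dnajb9 and Dnajc3 were higher. These were named after their values were seen. Of 17 genes of ER-associated degradation, 8 were higher and none lower without the fold limit, with Selenos at a log2 fold change of 0.84 and Erlec1 at 0.74. Derl3 alone passed the limit, with at most 0.315 CPM in treated cells, and was not called by DESeq2 (adjusted p = 0.106). Without the library at 0 μM on day 5, 3 chaperones and 0 degradation genes were lower and 3 of each higher, and Hsp90b1 was at -0.46 (adjusted p = 0.0501 by edgeR). Without that on day 10, 6 chaperones were lower and 2 degradation genes higher, with a median of 0.20 over the degradation genes and 13 of 17 above 0. Against A-5 and B-4, 4 chaperones were lower and 1 degradation gene was higher, and the median of the degradation genes was 0.02. Of 26 genes of ER translocation and COPII transport, 5 were higher and 3 lower without the fold limit.

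**Figure D4:**
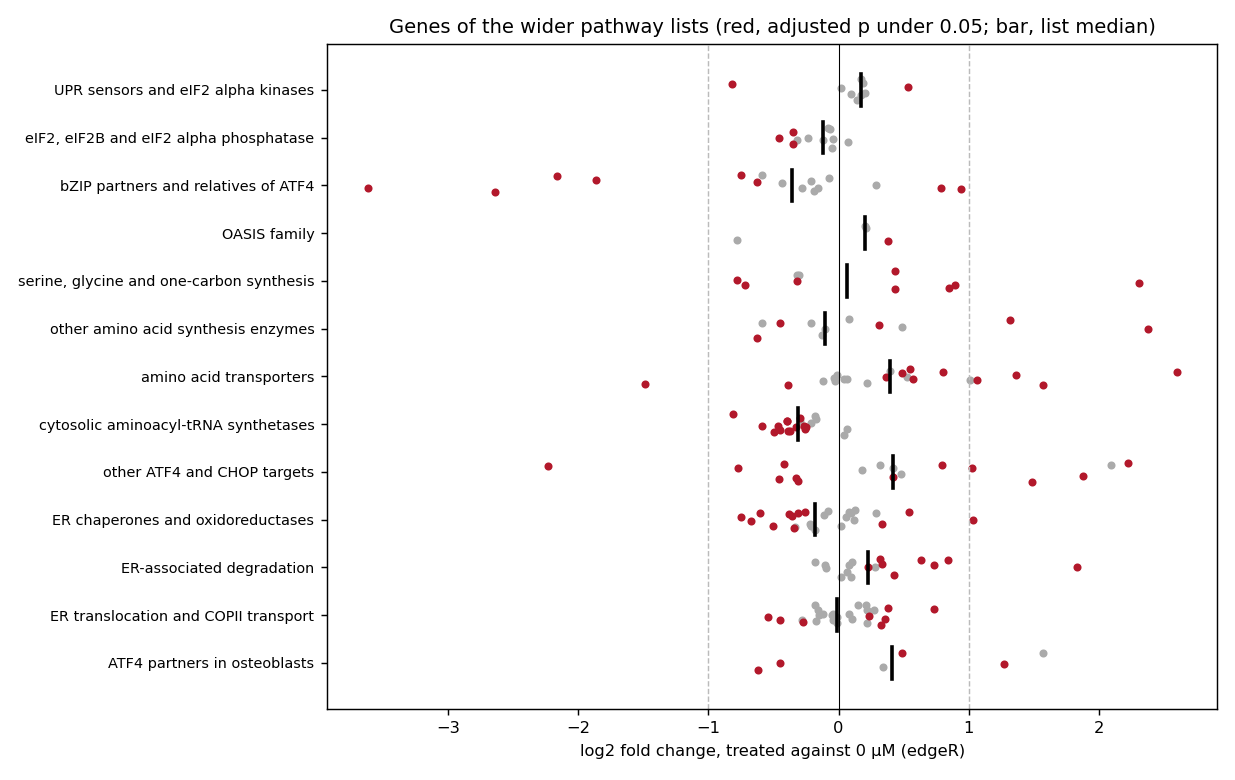
Log2 fold change of every tested gene of the 13 pathway lists, treated against 0 μM, by edgeR (horizontal axis; 1 point per gene). Red points have an adjusted p under 0.05, black bars are list medians and dashed lines mark the fold limit. The synthetases lie mostly below 0 with a median of -0.31 and the degradation genes mostly above 0 with a median of 0.22.

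Among ATF4 partners in osteoblasts, Runx2 was called higher, from 93.7 and 88.1 CPM to 223 ± 28.1 CPM (log2 fold change 1.27, adjusted p = 4.11e-05 by edgeR). Runx2 also stood in the list of osteoblast markers, and A-5 and B-4 held 113 and 194 CPM, against which it was not called (0.53, adjusted p = 0.103 by edgeR). The kinase Rps6ka3 (RSK2), which phosphorylates ATF4, was lower without the fold limit (log2 fold change -0.45), but not without the library at 0 μM on day 10 (adjusted p = 0.077 by edgeR) or against A-5 and B-4 (0.174). The osteocalcin genes Bglap and Bglap2, known ATF4 targets, were higher on day 10 than on day 5 in treated cells (log2 fold changes 2.57 and 2.28, adjusted p = 0.00825 and 0.0272 by edgeR). Their levels in treated cells were low, at most 5.32 CPM for Bglap, and as near-identical copies they share reads.

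The genes most like 3 of the members over the 10 libraries were sought among 10393 genes with a mean of at least 5 CPM by Pearson correlation of log2 CPM. For Atf4 they were Morc4 (0.98), Dnajc15 (0.97) and Tnip2 (0.97), and 252 genes had a correlation above 0.9. For Chac1 they were Ncoa5, Mapkapk5 and Cstf2t (each 0.95), with 13 genes above 0.9, and for Hspa5 B3galnt1 (0.94), Wtip (0.89) and Acadvl (0.87), with 1 gene above 0.9. These values are descriptions over 10 libraries that share treatment, and the libraries of treated cells stand apart from the rest for Atf4. Within the 6 treated libraries the correlation of Morc4 with Atf4 was 0.78.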

How the data were processed

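The authors sequenced mRNA of MC3T3-E1 cells and deposited 1 table with raw read counts per gene and FPKM, counts scaled by transcript length and library size, for 10 libraries. HISAT2 2.0.4 and GATK 3.2-2 stand in the submitters' processing notes; the counting program, annotation and genome build are not given in the sources used here. Columns with the authors' own comparisons of libraries (fold changes, p-values and their calls) were not used. The counts were fitted over all genes in edgeR 4.0.16 (R 4.3.3; TMM, filterByExpr, quasi-likelihood test, Benjamini-Hochberg adjustment), with limma 3.58.1 and DESeq2 1.42.0 as alternatives, and the fits were tested on simulated data. CPM given in the text uses TMM factors over all 10 libraries, and each fit its own. Differences of log2 CPM used a prior count of 2. No library was removed, and the untreated libraries entered only alternatives and descriptions.

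All 10 genes were named, with every tested stress sensor, up to 3 called genes per list with the largest change and a mean of at least 5 CPM, list genes called between days or with dose, and the 3 genes most like Atf4, Chac1 and Hspa5. Other genes were named after their values were seen. The members and lists were chosen with earlier results of these data known. Promoter windows are from RefSeq (GRCm38.p6) and gene positions from GENCODE M21, matched by Ensembl identifier. Whether these builds are those of the authors is not given in the sources used here. A count of 0 allows up to 3 counts, 0.0502 to 0.118 CPM over the libraries, and this covers counting error only. Alternatives were other normalizations, filters, covariates, fold limits, control libraries and units, each library left out in turn, and, chosen after seeing the data, depth class (above or below 40000000 counts).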

Additional observations from a re-analysis of the deposited data

Results flagged for a closer look

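Creb3l1 at 150 μM on day 5 was at 71.22 CPM, further from the other 5 treated libraries, which lay between 103 and 115 CPM, than Dixon's limit for 6 values allows (gap over range, 0.722). Chance alone marks about 1 in 20 groups in this way, and 10 genes were looked at.

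For Asns, Chac1 and Trib3 every treated library lay above the 0 μM library of its day on day 5 and below it on day 10. The 3 differences of a day share 1 library at 0 μM, and the share of all genes with this pattern was not counted. The log2 effect on day 10 minus that on day 5 was -0.5761 for Asns, -0.9609 for Chac1 and -1.206 for Trib3. The difference was tested as an interaction in edgeR and did not pass for any of the 3 (adjusted p = 0.54, 0.501 and 0.482).

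Trib3 was at 47.26 CPM in the untreated library B-4, which the comparison with 0 μM did not use, against 14.0 and 16.0 CPM at 0 μM and 14.0 CPM in A-5. The labels give no time for these libraries, and they have no replicates.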

How the results depend on the processing

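The 10 genes gave 520 values under the alternatives, of which 509 kept their side of the limits, 7 came to pass and 4 no longer passed. None that passed changed direction. In 41 values, over 17 pairs of gene and comparison, the sign differed from the one reported while the gene passed neither way, the largest of these being Chac1 for treated against 0 μM (-0.33). Atf4 in treated cells had an adjusted p between 2.09e-06 and 0.0261 over 21 alternatives without a fold threshold in the test (edgeR, DESeq2 and limma). It was 1 gene called lower when the fold limit was dropped. Atf3 was called in all alternatives except limma on log2(FPKM + 1), where 0 genes were called higher.

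Between days, 2 of the 10 genes were called lower with library totals without TMM, 2 with depth class in place of dose and 3 with no fold limit, against 1 as reported. When treated libraries were left out in turn the count ranged from 0 to 2, with 0 without the library at 100 μM or 200 μM on day 5 or at 100 μM on day 10, and 2 (Chac1 and Trib3) without either library at 150 μM. The genes of the pathway lists called higher numbered 14 as reported, 6 with the untreated libraries instead of 0 μM, and 9 to 17 with libraries left out in turn. The lowest was without the library at 0 μM on day 10, a fit that holds the effect of day 5 alone. Of 15 called list genes with a mean of at least 5 CPM, 6 were called in the same direction against the untreated libraries. The cause was not tested. The labels give no replicate numbers to pair libraries by, and the comparison between days was paired by dose.

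With 1 library per dose and day, and 1 library at 0 μM per day, the spread at 0 μM was not measured on either day. Dose and replicate cannot be told apart. The deeper libraries were not spread evenly over doses and days, and the untreated libraries differed from each other by 3.38 times in Trib3. Atf3 had the fewest counts of the 10 genes, 37 in its lowest library.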
